A study of Mus musculus with 6 samples.

Results

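The 10 genes described here are the mouse fatty acid uptake and binding genes Fabp4, Fabp5, Cd36 and Lpl, the lipid droplet genes Plin2, Plin3 and Hilpda, the triglyceride synthesis genes Dgat1 and Dgat2, and the lipolysis gene Pnpla2. They were taken by gene name from the deposited expression table, and all 10 were among its 54532 listed genes. The table holds RNA-seq values of 6 libraries of macrophages that were cultured from mouse bone marrow. The NSUN2-KO group (3 libraries) came from mice with the gene for NSUN2, an RNA cytosine methyltransferase, knocked out, and the NC group (3 libraries) from mice named only by that abbreviation. Cells of both groups had been polarized towards the inflammatory M1 state with lipopolysaccharide and interferon gamma, so neither group shows the unstimulated level of any gene. The labels give no allele, Cre driver, strain, age or sex, the abbreviation NC is not spelled out, and the duration of the stimulation is not stated. They call the 3 replicates of a group biological, but the design text elsewhere speaks of 2 per condition for the differential analysis, and neither says whether each library came from a different mouse. All 3 deposited columns per group were used, and p-values measure the spread between these libraries only.

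Macrophages take up fatty acids through the scavenger receptor CD36 and from lipoprotein triglyceride that lipoprotein lipase hydrolyses, and carry them in the cytosol on fatty acid binding proteins. Fatty acids in excess are esterified to triglyceride, the last step being made by the DGAT enzymes, and stored in droplets coated by perilipins. The lipase encoded by Pnpla2 starts the breakdown of that store, and the small protein HILPDA inhibits it. Inflammatory macrophages are known to accumulate such droplets.

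The deposited values are FPKM (fragments per kilobase of gene length, scaled for library depth), and whole reads recovered from them summed to 35019033 to 45636131 per library. Nsun2 itself was at 0.967, 1.36 and 0.863 FPKM in NSUN2-KO libraries, against 1.88, 2.04 and 1.84 FPKM in NC libraries. The NSUN2-KO level was therefore 55.4% of the NC level, and the transcript was not lost. On the log2(FPKM + 1) scale, which understates changes of low genes, the log2 fold change was -0.51 (SE 0.10, limma adjusted p = 0.0228). With limma voom on the recovered reads, without the added 1 FPKM, it was -0.88. The call on the log2(FPKM + 1) scale was lost without NSUN2-KO replicate 1 (adjusted p 0.0817) or 3 (0.0540) and without NC replicate 1 (0.0532), 2 (0.0848) or 3 (0.0698). It was also lost when genes below the filter were included (0.113). Transcripts of Y-linked Ddx3y, Eif2s3y, Uty and also Kdm5d were listed at 0 in every NSUN2-KO library and averaged 6.57, 5.51, 1.53 and 0.561 FPKM in NC libraries, and Xist averaged 30.6 FPKM in NSUN2-KO and 14.5 FPKM in NC libraries. Each NC library held both kinds, with Ddx3y at 6.95, 6.67 and 6.10 FPKM and Xist at 15.5, 14.0 and 14.0 FPKM. How many mice, and of which sex, lay behind a library was not tested. The groups thus differed in sex-linked transcripts as well as in genotype, and the 2 differences cannot be told apart in any value below. Fold changes across all genes were also lower at higher GC content (Spearman rho -0.37 over 9433 genes, which are not independent replicates).

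The macrophage identity of the cells was visible in all libraries. Summed FPKM of 8 macrophage markers was 3368 to 3409 in NSUN2-KO and 3929 to 4018 in NC libraries. That difference lay mainly in Lyz2, which averaged 1163 FPKM in NSUN2-KO and 1736 FPKM in NC libraries. By the test described below, 1 of the 8 (Cd14) was higher and 3 (Lyz2, Cd68 and Fcgr1) were lower in NSUN2-KO. Of all genes tested, 4.19% were higher and 4.30% lower. Adgre1 averaged 691.8 FPKM in NSUN2-KO and 645.3 FPKM in NC libraries, and Csf1r 193.3 FPKM in NSUN2-KO and 190.6 FPKM in NC libraries. Fat cells express most of the 10 genes too, but the adipocyte markers Plin1, Cidec, Lep and Cfd were listed at 0 in all 6 libraries, and the 8 adipocyte markers summed to 2.28 to 2.55 FPKM in NSUN2-KO and 2.37 to 2.71 FPKM in NC libraries, nearly all of it Lipe. The 7 endothelial markers summed to 9.78 to 10.7 FPKM in NSUN2-KO and 9.41 to 10.2 FPKM in NC libraries, with Emcn at 0. The 9 neutrophil markers summed to 79.7 to 83.5 FPKM in NSUN2-KO and 98.6 to 106.6 FPKM in NC libraries. Nearly all of it was S100a8, S100a9, Mmp8 and Csf3r. Of the 5 tested, Csf3r, Mmp8 and S100a9 were lower in NSUN2-KO and 0 were higher. Elane was at 0, and Ly6g and Mpo averaged at most 0.148 FPKM in either group. The 6 dendritic cell markers summed to 8.22 to 9.42 FPKM in NSUN2-KO and 5.10 to 6.14 FPKM in NC libraries. Nearly all of it was Ccr7 and Xcr1. Of these 2, the only ones tested, Ccr7 was higher in NSUN2-KO and Xcr1 did not pass (limma adjusted p = 0.0768). Flt3, Zbtb46, Clec9a and Siglech averaged at most 0.188 FPKM in either group. The 7 stromal markers, all below the filter, summed to 0.754 to 1.04 FPKM in NSUN2-KO and 1.52 to 1.72 FPKM in NC libraries. With no filter, Col1a1 and Col1a2 were lower in NSUN2-KO (limma adjusted p 0.0235 and 0.0465). Col1a1 averaged 0.279 FPKM in NSUN2-KO and 0.950 FPKM in NC libraries. Dcn went the other way, at 0.286 FPKM in NSUN2-KO and 0.131 FPKM in NC libraries (0.260). The 8 lymphocyte markers summed to 0.224 to 0.335 FPKM in NSUN2-KO and 0.034 to 0.182 FPKM in NC libraries. The part of these marker differences in the values below was not tested. In bulk RNA, fewer cells of a type and less RNA per cell cannot be told apart.

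Among the 10 genes, Fabp5 and Dgat1 were lower and Hilpda was higher in NSUN2-KO macrophages, while the abundant droplet coat gene Plin2 and the uptake receptor Cd36 did not pass the test. The test was limma on log2(FPKM + 1) for the 9443 genes averaging 1 FPKM or more, and a gene was called changed when its p, adjusted over those genes, was under 0.05. Calls in either direction covered 8.49% of all genes tested. Of the 10 genes, 9 passed that filter, 2 were lower (22.2% of those tested, against 4.30% of all genes tested) and 1 was higher (11.1%, against 4.19% of all genes tested). The other 6 tested genes did not pass, and Dgat2 was below the filter. The median log2 fold change of the 9 was -0.07, beside -0.01 over all genes tested. Of the 9 fold changes, 8 were negative, against 51.8% of all genes tested. These include Plin2 (-0.0010), Fabp4 (-0.011) and Pnpla2 (-0.07), whose signs turned under some alternatives. In 4 of the 9 every NSUN2-KO library was below every NC library (16.7% of all genes tested), and in 1 every NSUN2-KO library was above (14.4% of all genes tested). At an unadjusted limma p under 0.05 stood 5 of the 9 (25.5% of all genes tested). Counts over so few genes are a description only.

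**Figure D1:**
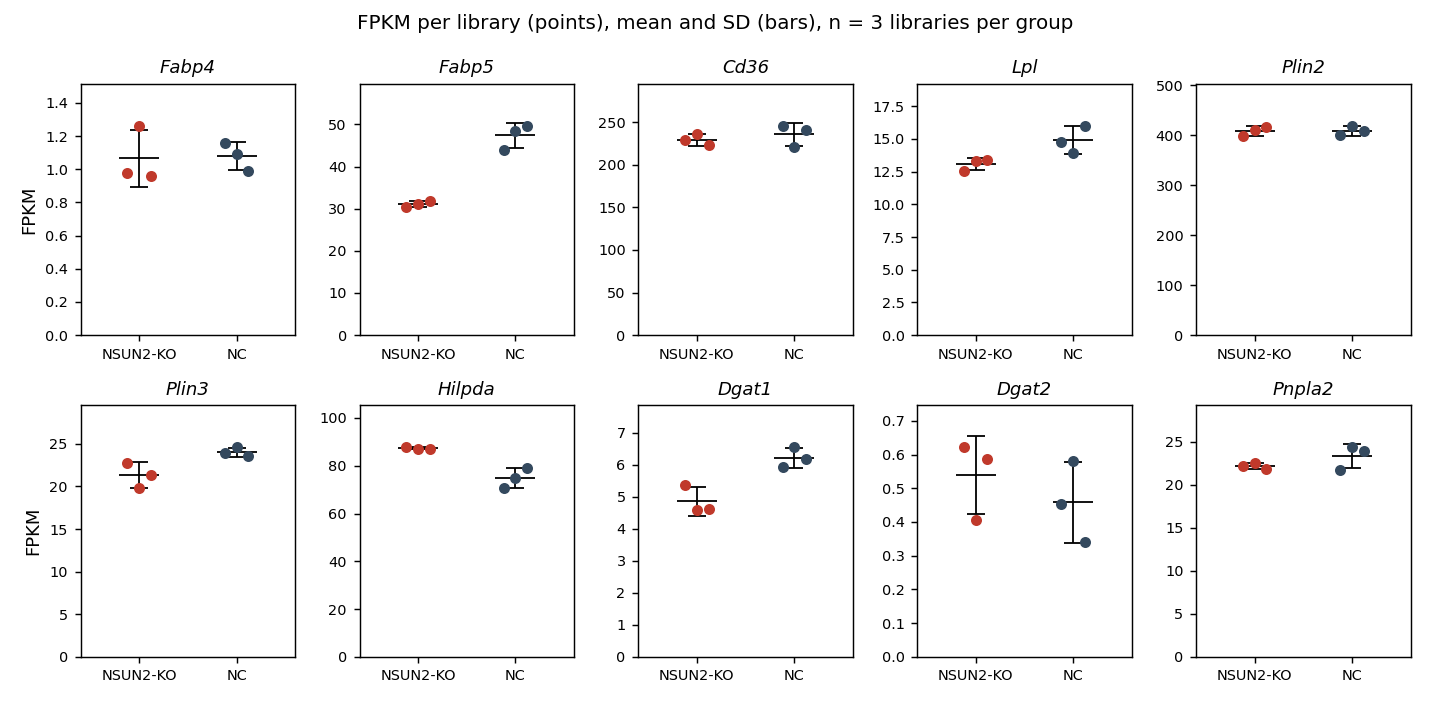
FPKM (vertical axis, linear from 0) of each of the 10 genes in the 3 NSUN2-KO and 3 NC libraries, with points for libraries and bars for the mean and SD. Fabp5 sits at 30.5 to 31.7 FPKM in NSUN2-KO libraries and 44.0 to 49.7 FPKM in NC libraries, whereas the points of Fabp4, Cd36, Plin2, Dgat2 and Pnpla2 overlap between the groups.

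Fabp5, at chr3:10012548-10016607 on the plus strand of GRCm38, encodes the epidermal type fatty acid binding protein, which macrophages express strongly. It was measured at 30.5, 31.1 and 31.7 FPKM in NSUN2-KO libraries, against 44.0, 48.5 and 49.7 FPKM in NC libraries. The NSUN2-KO libraries lay close together and well below all NC libraries. Their mean of 31.1 ± 0.62 FPKM was 65.7% of the NC mean of 47.4 ± 3.04 FPKM (SD, n = 3 each), from 3894 to 7920 reads per library. Fabp5 fell by 0.59 on the log2 scale (SE 0.05, 95% interval -0.70 to -0.48, limma adjusted p = 0.000694). It ranked 30 among the genes with a negative fold change by size and 33 among all genes by p. The call held in all 18 alternative analyses, with log2 fold changes of -0.64 to -0.53. Among these, median-ratio rescaling divided every library by the same 1.004 and was bound to give nearly the main result. Fabp5 has processed pseudogene copies to which its reads could be assigned, and the 2 listed copies held no reads in any library except 4 reads of Fabp5l2 in NC replicate 1.

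Fabp4 encodes the adipocyte type binding protein, also known from macrophages, and lies 187480 bases beyond Fabp5 at chr3:10204088-10208576 on the minus strand. Its level was 0.976, 1.26 and 0.961 FPKM in NSUN2-KO libraries, against 1.16, 1.09 and 0.990 FPKM in NC libraries. The groups overlapped, and the means of 1.07 ± 0.17 FPKM in NSUN2-KO and 1.08 ± 0.085 FPKM in NC libraries differed by less than their SDs. The log2 fold change was -0.01 (95% interval -0.22 to 0.19, limma adjusted p = 0.952), from only 162 to 224 reads per library, so that a change inside that interval was not detectable. The coefficient of variation was 16.0% in NSUN2-KO and 7.85% in NC libraries, while counting error alone gives 7.47% in NSUN2-KO and 7.08% in NC libraries. Within a library, the ratio of Fabp4 to Fabp5 was 0.0320, 0.0406 and 0.0303 in NSUN2-KO, against 0.0264, 0.0225 and 0.0199 in NC libraries. Every NSUN2-KO ratio was above every NC ratio, a log2 difference of 0.58 with an exact two-sided permutation p of 0.1, the smallest that 3 against 3 allows (0.15 adjusted over the 3 ratios computed). The listed genes between Fabp5 and Fabp4 include further binding protein genes. Of these 6 genes, Pmp2 and Fabp9, along with Gm37308 and Gm37389, were listed at 0 in all 6 libraries, with no read recovered. Gm9833 was at 2.19, 1.51 and 1.93 FPKM in NSUN2-KO libraries, against 1.12, 1.43 and 1.19 FPKM in NC libraries (limma adjusted p = 0.0820), and Gm38335 was below the filter at 0.153 FPKM in NSUN2-KO and 0.220 FPKM in NC libraries.

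Cd36, at chr5:17781690-17888801 on the minus strand, encodes the receptor that takes up long-chain fatty acids and oxidized lipoprotein. It was at 228.7, 236.2 and 222.9 FPKM in NSUN2-KO libraries, against 246.2, 220.5 and 240.6 FPKM in NC libraries. The lowest of all 6 values was an NC library, and the groups overlapped. The log2 fold change was -0.04 (SE 0.05, 95% interval -0.15 to 0.07, limma adjusted p = 0.648), so the interval reached no lower than -0.15.

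Lpl, at chr8:68880491-68907448 on the plus strand, encodes lipoprotein lipase, the secreted enzyme that releases fatty acids from lipoprotein triglyceride. Its values were 12.6, 13.3 and 13.4 FPKM in NSUN2-KO libraries, against 14.7, 13.9 and 16.0 FPKM in NC libraries. All NSUN2-KO values lay below all NC values, though the nearest were close. The NSUN2-KO mean was 87.8% of the NC mean, a log2 fold change of -0.17 (SE 0.06) that did not pass the test across all genes (limma adjusted p = 0.0995). With limma voom on the recovered reads it did (adjusted p = 0.0215). Voom called 14.9% of all genes tested, 8.25% higher and 6.61% lower, and among the 10 genes it called Hilpda higher and Fabp5, Dgat1, Lpl and Plin3 lower.

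**Figure D2:**
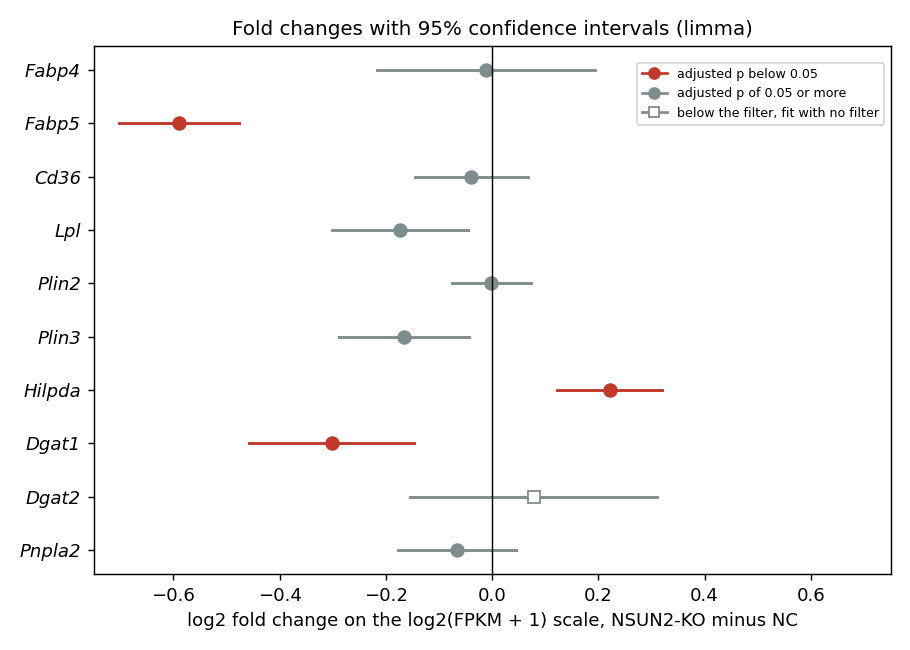
Log2 fold change (horizontal axis, NSUN2-KO minus NC, on the log2(FPKM + 1) scale) of each gene, with bars for the 95% confidence interval from limma over 3 libraries per group. Fabp5 at -0.59, Dgat1 at -0.30 and Hilpda at 0.22 are past adjusted p of 0.05, the intervals of Lpl and Plin3 miss 0 without passing the adjusted test, and the open square is Dgat2 in the analysis with no filter.

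Plin2, at chr4:86648386-86670060 on the minus strand, encodes the main perilipin of droplets outside fat tissue. It had the highest level of the 10 genes in every library, at 397.9, 411.2 and 417.0 FPKM in NSUN2-KO, against 400.0, 419.3 and 407.8 FPKM in NC. The groups overlapped almost completely, with means of 408.7 ± 9.79 FPKM in NSUN2-KO and 409.0 ± 9.68 FPKM in NC libraries (SD, n = 3 each). From 50669 to 67421 reads per library, the log2 fold change was -0.00 with a 95% interval of -0.07 to 0.07 (limma adjusted p = 0.988), and its sign turned under 6 of 18 alternatives, among them TPM scaling (0.0084). Plin3, at chr17:56277476-56292873 on the minus strand, encodes a perilipin that binds small, newly formed droplets. It was at 22.8, 19.8 and 21.4 FPKM in NSUN2-KO libraries, against 23.9, 24.6 and 23.5 FPKM in NC libraries. All NSUN2-KO values were lower, at 88.8% of the NC mean, but the log2 fold change of -0.17 (SE 0.05) did not pass across all genes (limma adjusted p = 0.0983). It passed with limma voom (adjusted p = 0.0424). The ratio of Plin2 to Plin3 was 17.5, 20.8 and 19.5 in NSUN2-KO libraries and 16.7, 17.0 and 17.3 in NC libraries, so that every NSUN2-KO ratio was higher. The log2 difference of 0.17 had an exact two-sided permutation p of 0.1 (0.15 adjusted over the 3 ratios).

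Hilpda, at chr6:29272488-29275446 on the plus strand, encodes the hypoxia-inducible droplet protein that inhibits the Pnpla2 lipase. Its values were 87.7, 87.2 and 87.1 FPKM in NSUN2-KO libraries, against 70.6, 74.7 and 79.2 FPKM in NC libraries. The NSUN2-KO libraries lay together above all NC libraries, which spread more widely. Means were 87.3 ± 0.34 FPKM in NSUN2-KO and 74.8 ± 4.29 FPKM in NC libraries (SD, n = 3 each), which put NSUN2-KO at 116.7% of NC. The log2 fold change of 0.22 (SE 0.04, 95% interval 0.12 to 0.32) passed the test (limma adjusted p = 0.0219). The coefficient of variation was 0.394% in NSUN2-KO and 5.73% in NC libraries, while counting error alone gives 1.66% in NSUN2-KO and 1.71% in NC libraries, so the closeness of the NSUN2-KO values was below their counting error. The call was lost without NSUN2-KO replicate 1 (adjusted p 0.0818), 2 (0.0599) or 3 (0.0510), and without NC replicate 2 (0.0710). With no filter the adjusted p was 0.0896, and with no mean-variance trend 0.0582. The log2 fold change was 0.18 to 0.26 over the left-out libraries and 0.22 in both of the other settings.

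Hilpda and Plin2 are both known targets of hypoxia-inducible factors, and ACGTG is a form of the core motif that these bind. Plin2 is also a known target of peroxisome proliferator-activated receptors, whose element is a direct repeat of AGGTCA with 1 base between the copies. RefSeq (GRCm38.p6) promoter windows, 250 bases before to 50 after a start site, were held for 5 of the 10 genes by symbol (Plin2, Cd36, Hilpda with 2 start sites, Pnpla2 and Plin3). Both motifs were searched on both strands in exactly these letters, so variant forms of either were not counted. ACGTG was found in 2 of these 6 windows and in 19.6% of all 32851 windows, and the direct repeat in 0 of 6 windows and in 13 of all windows. The 2 windows with ACGTG are shown because they belong to the gene that was higher and to the droplet coat gene with no detectable difference. They are chr6:29272376-29272675 (plus strand) and chr4:86670010-86670309 (minus strand), printed 5′ to 3′ along the gene with the matched letters in capitals.
Hilpda: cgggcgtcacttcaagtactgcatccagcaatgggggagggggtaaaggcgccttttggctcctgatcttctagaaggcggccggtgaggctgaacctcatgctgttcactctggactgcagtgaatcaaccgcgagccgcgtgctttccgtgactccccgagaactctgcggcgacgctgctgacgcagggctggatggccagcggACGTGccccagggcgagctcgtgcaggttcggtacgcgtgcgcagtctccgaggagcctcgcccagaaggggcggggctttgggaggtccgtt
Plin2: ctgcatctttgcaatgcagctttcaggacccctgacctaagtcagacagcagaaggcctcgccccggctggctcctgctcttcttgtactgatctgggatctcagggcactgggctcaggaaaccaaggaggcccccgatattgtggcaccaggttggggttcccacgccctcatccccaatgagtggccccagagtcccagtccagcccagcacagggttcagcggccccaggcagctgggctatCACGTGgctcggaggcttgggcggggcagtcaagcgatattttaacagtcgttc
The Hilpda match begins at position -43 relative to the start site, and the window of its other start site held no ACGTG. In Plin2 a match on each strand, at -4 and -3, overlap to give the capitals CACGTG. A match is a description of the letters, not a measured binding site, and the genes that hold it had log2 fold changes of 0.22 for Hilpda and -0.00 for Plin2.

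Dgat1 and Dgat2 encode unrelated enzymes that both make triglyceride from diacylglycerol. Dgat1, at chr15:76502015-76511953 on the minus strand, was at 5.38, 4.60 and 4.61 FPKM in NSUN2-KO libraries, against 5.93, 6.55 and 6.18 FPKM in NC libraries. Every NSUN2-KO library was below every NC library, with means of 4.86 ± 0.45 FPKM in NSUN2-KO and 6.22 ± 0.31 FPKM in NC libraries (SD, n = 3 each), or 78.2% of NC. Dgat1 fell by 0.30 on the log2 scale (SE 0.07, 95% interval -0.46 to -0.15, limma adjusted p = 0.0333), from 493 to 916 reads per library. The call was lost without NSUN2-KO replicate 2 (adjusted p 0.0932) or 3 (0.0844) and without NC replicate 1 (0.0525), 2 (0.111) or 3 (0.0992). It was also lost with no filter (0.124) and after correction of each library for GC content and length (0.0569). The log2 fold change was -0.36 to -0.27 over the left-out libraries, -0.30 with no filter and -0.24 after that correction.

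Dgat2, at chr7:99153658-99182719 on the minus strand, was listed at 0.622, 0.407 and 0.587 FPKM in NSUN2-KO libraries, against 0.453, 0.581 and 0.340 FPKM in NC libraries. The groups overlapped, and only 41 to 82 reads lay behind each value. With no filter its log2 fold change was 0.08 (95% interval -0.15 to 0.31, limma adjusted p = 0.766), so the interval left both directions possible. Dgat1 was therefore the more abundant enzyme transcript per length, with a ratio of Dgat1 to Dgat2 of 8.66, 11.3 and 7.85 in NSUN2-KO libraries, against 13.1, 11.3 and 18.2 in NC libraries. The ratios met at 11.3, and the log2 difference of -0.60 gave an exact two-sided permutation p of 0.2 (0.2 adjusted over the 3 ratios).

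Pnpla2, at chr7:141455198-141460743 on the plus strand, encodes adipose triglyceride lipase, which takes the first fatty acid from triglyceride. It was at 22.2, 22.5 and 21.9 FPKM in NSUN2-KO libraries, against 21.7, 24.4 and 23.9 FPKM in NC libraries. NC replicate 1 lay below all NSUN2-KO libraries and the other NC libraries above them. The log2 fold change was -0.07 (SE 0.05, 95% interval -0.18 to 0.04, limma adjusted p = 0.436), and its sign turned (0.016) after the same correction for GC content and length. 

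By level per length, the order in NSUN2-KO libraries was Plin2, Cd36, Hilpda, Fabp5, Pnpla2, Plin3, Lpl, Dgat1, Fabp4 and Dgat2. The order in NC libraries was the same except that Plin3 stood above Pnpla2, and those neighbours alone overlapped in range in either group. FPKM of different genes depends on the length used, and the authors' length equalled the union of all annotated exons of GENCODE vM21 for all 10 genes. For Fabp4 that length of 4489 bases was 5.01 times its longest coding transcript of 896 bases, for Fabp5 3567 bases stood against 987, and for Lpl 10478 against 4115. For Plin3 the lengths of 3786 and 3645 bases were nearly equal. With the longest coding transcript as length, Fabp5 averaged 112.5 FPKM in NSUN2-KO and 171.3 FPKM in NC libraries, above Hilpda at 98.1 FPKM in NSUN2-KO and 84.1 FPKM in NC libraries. Lpl, at 33.3 FPKM in NSUN2-KO and 38.0 FPKM in NC libraries, then stood above Pnpla2 at 25.5 FPKM in NSUN2-KO and 26.8 FPKM in NC libraries. Plin2 remained highest at 760.3 FPKM in NSUN2-KO and 760.8 FPKM in NC libraries, and Dgat2 lowest at 0.734 FPKM in NSUN2-KO and 0.624 FPKM in NC libraries. The length used cancels in a fold change between the groups apart from the added 1 FPKM.

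**Figure D3:**
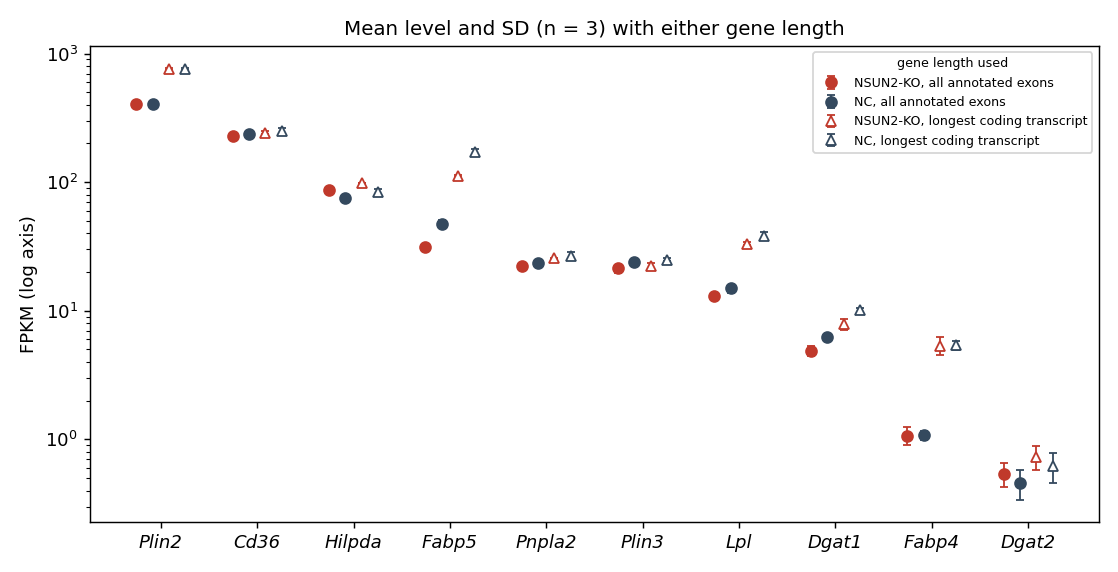
Mean FPKM with SD (log axis, n = 3 libraries per group) of each gene for the authors' length (circles) and for the longest coding transcript (triangles), NSUN2-KO left of NC in each pair. Fabp4, Fabp5 and Lpl move up most with the shorter length, and Fabp5 then stands above Hilpda in both groups.

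The genes whose pattern over the 6 libraries was most like that of Hilpda and Fabp5, the genes with the most positive and most negative fold change here, were ranked by the root-mean-square difference of log2(FPKM + 1) values centred on their mean. Nearest to Hilpda were Anp32a (0.0281), Kank2 (0.0335) and Upp1 (0.0345). Upp1, which encodes a uridine phosphorylase, averaged 160.8 ± 2.94 FPKM in NSUN2-KO and 139.6 ± 4.20 FPKM in NC libraries. Nearest to Fabp5 were Gngt2 (0.0449), Apoe (0.0512) and Lyz2 (0.0581). Apoe, which encodes the lipoprotein component apolipoprotein E, averaged 178.9 ± 5.96 FPKM in NSUN2-KO and 273.5 ± 14.3 FPKM in NC libraries. Lyz2, the lysozyme gene used as a myeloid marker, averaged 1163 ± 47.1 FPKM in NSUN2-KO and 1736 ± 31.2 FPKM in NC libraries. The NSUN2-KO level was 65.7% of the NC level for Fabp5 and 67.0% for Lyz2. Such closeness follows from the way these genes were picked and is a description only.

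Beyond the 10 genes, 128 genes of 7 lists on the same pathways were in the table and 76 were tested. Of these, 4 were higher and 5 lower in NSUN2-KO libraries (5.26% and 6.58%, near the 4.19% and 4.30% of all genes tested), 67 did not pass, and the median log2 fold change was -0.04 beside -0.01 over all genes tested. Without NSUN2-KO replicates 1, 2 and 3 in turn the higher calls numbered 0, 1 and 1 and the lower calls 1, 2 and 2. Without NC replicates 1, 2 and 3 in turn they numbered 1, 1 and 1 higher and 3, 1 and 1 lower.

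Fatty acid transport and activation held 11 tested genes of 21, with 2 higher and 0 lower and a median log2 fold change of 0.06. The higher share was 18.2%, against 4.19% of all genes tested, and shares over so few genes are a description only. The 2 higher genes encode acyl-CoA synthetases, which activate fatty acids for esterification or oxidation. Acsl1 averaged 47.6 ± 2.25 FPKM in NSUN2-KO and 41.7 ± 0.38 FPKM in NC libraries (log2 fold change 0.19, SE 0.04, limma adjusted p = 0.0295). Acsl4, whose enzyme prefers arachidonic acid, lies on the X chromosome. It was at 29.8, 30.3 and 28.4 FPKM in NSUN2-KO libraries, against 26.8, 25.1 and 26.2 FPKM in NC libraries (log2 fold change 0.17, SE 0.04, limma adjusted p = 0.0421). Acsl1 kept its call without NSUN2-KO replicate 2 but not without any other library (adjusted p 0.0603 to 0.112), and Acsl4 without NSUN2-KO replicate 3 but not without any other (0.0525 to 0.140). Both calls were also lost with no filter (0.0957 for Acsl1 and 0.114 for Acsl4), and each was kept in 10 of 18 alternatives. The transporter gene Slc27a1 averaged 16.3 ± 0.26 FPKM in NSUN2-KO and 17.9 ± 0.44 FPKM in NC libraries (limma adjusted p = 0.0738).

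Genes that fold, anchor or regulate lipoprotein lipase gave 4 tested of 13 and no call, with a median log2 fold change of -0.05. Lmf2, named lipase maturation factor 2, averaged 20.6 ± 0.28 FPKM in NSUN2-KO and 23.0 ± 1.59 FPKM in NC libraries (limma adjusted p = 0.115). The fold changes of Lmf1 (adjusted p 0.685) and Sel1l (0.515), which take part in maturation of the lipase, were nearer to 0. Of the untested genes, named after their values were seen, the capillary anchor gene Gpihbp1 and the activator gene Apoc2 were listed at 0 in all 6 libraries, and the inhibitor gene Angptl4 averaged 0.010 FPKM in NSUN2-KO and 0.021 FPKM in NC libraries.

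Other droplet coat and biogenesis genes gave 12 tested of 21, again with no call, and a median of -0.05. Bscl2, which encodes seipin, averaged 3.77 ± 0.20 FPKM in NSUN2-KO and 4.35 ± 0.16 FPKM in NC libraries (log2 fold change -0.17, limma adjusted p = 0.112). Mettl7a1 (adjusted p 0.245) and Tmem41b (0.261) were the next nearest. Named after their values were seen, the other perilipin genes were almost absent, with Plin1 listed at 0 in all libraries, Plin4 at 0.0094 FPKM in NSUN2-KO and 0.0029 FPKM in NC libraries, and Plin5 at 0 in NSUN2-KO and 0.021 FPKM in NC libraries. Perilipin transcripts above 1 FPKM were those of Plin2 and Plin3.

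Other glycerolipid and sterol ester synthesis genes gave 11 tested of 18, with 2 higher and 1 lower and a median of -0.03. The shares were 18.2% higher and 9.09% lower, against 4.19% and 4.30% of all genes tested. Gpat3, a glycerol-3-phosphate acyltransferase that starts glycerolipid synthesis, was at 5.17, 5.09 and 5.03 FPKM in NSUN2-KO libraries, against 3.53, 3.06 and 4.09 FPKM in NC libraries. Its groups did not overlap, and it rose by 0.42 on the log2 scale (SE 0.08, limma adjusted p = 0.0219). Agpat5, which encodes an acyltransferase of the next step, averaged 1.79 ± 0.021 FPKM in NSUN2-KO and 1.15 ± 0.12 FPKM in NC libraries (0.37, SE 0.07, limma adjusted p = 0.0225). Agpat4, of the same acyltransferase family, went the other way, at 18.4, 19.6 and 18.3 FPKM in NSUN2-KO libraries against 22.6, 24.2 and 25.3 FPKM in NC libraries. It fell by 0.34 on the log2 scale (SE 0.05, limma adjusted p = 0.00817) and kept the call in all 18 alternatives. Gpat3 lost its call without NSUN2-KO replicate 1 (0.0786), 2 (0.0620) or 3 (0.0511) or NC replicate 1 (0.0531). Agpat5 lost its call without NSUN2-KO replicate 1 (0.0818), 2 (0.0599) or 3 (0.0539) or NC replicate 2 (0.0784) or 3 (0.0779). Both calls were also lost with no filter (0.101 for Gpat3 and 0.0931 for Agpat5). Gpat3 kept its call in 12 of 17 alternatives and Agpat5 in 10 of 17. The other 8 tested genes of this list did not pass.

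Other lipolysis and lipid hydrolase genes gave 7 tested of 14, with 0 higher and 2 lower and a median of -0.04. The lower share was 28.6% of these few genes, against 4.30% of all genes tested. Lipa, the lysosomal acid lipase gene, averaged 152.1 ± 1.12 FPKM in NSUN2-KO and 167.3 ± 4.78 FPKM in NC libraries (log2 fold change -0.14, SE 0.03, limma adjusted p = 0.0353). Abhd12, a lipid hydrolase gene, averaged 55.3 ± 0.97 FPKM in NSUN2-KO and 60.9 ± 1.10 FPKM in NC libraries (-0.14, SE 0.03, limma adjusted p = 0.0358). Both calls were lost when any 1 library was left out (adjusted p 0.0713 to 0.122 for Lipa and 0.0804 to 0.0977 for Abhd12), and with TPM scaling (0.0649 for Lipa and 0.0756 for Abhd12). They were also lost with no filter (0.0973 for Lipa and 0.0725 for Abhd12). Lipa kept its call in 8 of 18 alternatives and Abhd12 in 7 of 18. After correction of each library for GC content and length, the Abhd12 call was lost (log2 fold change -0.09, adjusted p 0.122) and that of Lipa was kept (-0.18, 0.00455). Lipe, the hormone-sensitive lipase gene, averaged 2.29 ± 0.11 FPKM in NSUN2-KO and 2.49 ± 0.10 FPKM in NC libraries (limma adjusted p = 0.440). Below the filter, and named after its values were seen, G0s2, another Pnpla2 inhibitor gene, was at 0.229, 0.131 and 0.306 FPKM in NSUN2-KO libraries, against 0.594, 1.03 and 0.293 FPKM in NC libraries.

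Mitochondrial fatty acid oxidation gave 17 tested of 21 with no call and a median of -0.06. The nearest to a call were the dehydrogenase gene Acads (log2 fold change -0.15, limma adjusted p = 0.133), the hydratase gene Echs1 (-0.17, 0.167) and the electron transfer gene Etfdh (-0.13, 0.168). Transcriptional regulators of lipid uptake and storage gave 14 tested of 20, with 0 higher and 2 lower and a median of -0.05. The lower share was 14.3%, against 4.30% of all genes tested. Cebpa, a myeloid and adipogenic transcription factor, was at 4.93, 4.22 and 5.53 FPKM in NSUN2-KO libraries, against 7.02, 7.08 and 7.21 FPKM in NC libraries. It fell by 0.47 on the log2 scale (SE 0.08, limma adjusted p = 0.0139). Rxra, the partner of lipid-sensing nuclear receptors, averaged 8.21 ± 0.16 FPKM in NSUN2-KO and 9.97 ± 0.66 FPKM in NC libraries (-0.25, SE 0.05, limma adjusted p = 0.0290). Cebpa lost its call without NSUN2-KO replicate 1 (0.0521) or NC replicate 2 (0.0523) or 3 (0.0543). Rxra lost its call without NSUN2-KO replicate 1 (0.101), 2 (0.0737) or 3 (0.0560) or NC replicate 2 (0.0840) or 3 (0.0916). Over all 18 alternatives Cebpa kept its call in 14 (highest adjusted p 0.0772) and Rxra in 11 (highest 0.101). Tfeb, a regulator of lysosomal genes, did not pass (limma adjusted p = 0.185). Pparg, below the filter and named after its values were seen, averaged 0.724 FPKM in NSUN2-KO and 0.959 FPKM in NC libraries with overlapping groups.

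**Figure D4:**
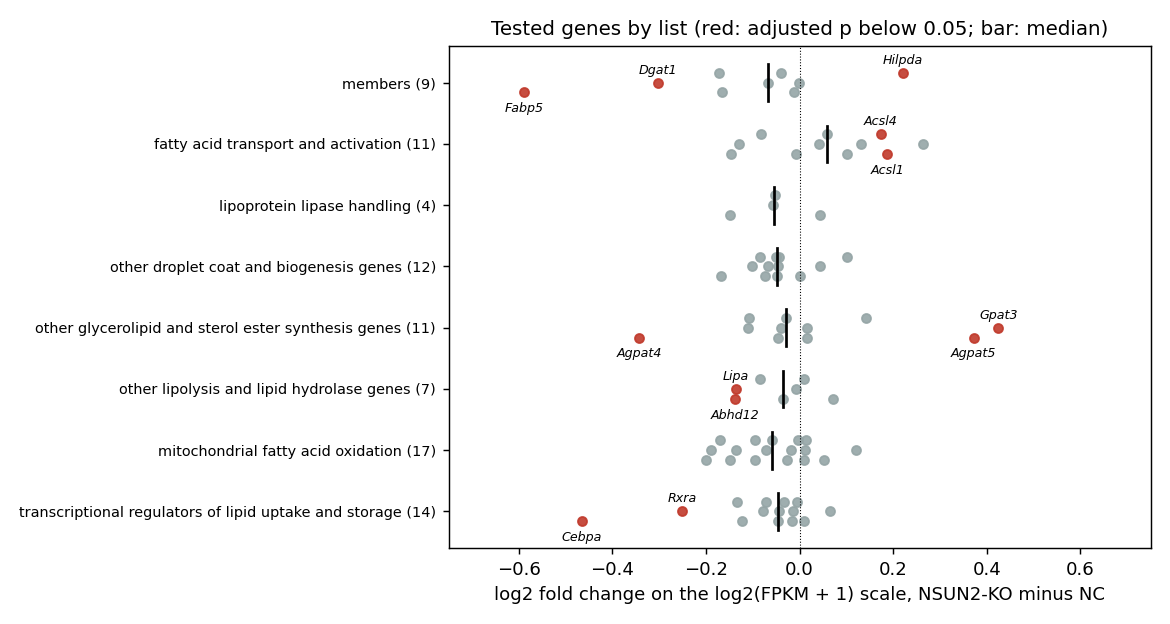
Log2 fold change (horizontal axis, NSUN2-KO minus NC, on the log2(FPKM + 1) scale) of every tested gene by list, with the number tested in brackets, black bars for list medians and red points for adjusted p below 0.05. The list medians lie between -0.07 and 0.06, and the called genes, labelled by name, lie on both sides of 0 among the synthesis genes.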

How the data were processed

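Expression was measured by RNA-seq in 6 libraries. The submitters' processing notes name the build GRCm38 (mm10), DESeq2 1.20.0, featureCounts 1.5.0-p3, HISAT2 2.0.5, fastp and CASAVA 1.8. The annotation release, strand setting and other parameters were not given in the sources used. The authors deposited gene-level FPKM with the gene length used. Each value was a whole number of reads (100% within 0.01 reads), and the deposited FPKM were found to be scaled by median-of-ratios size factors (0.897 to 1.17). Since reads are not independent molecules, counting errors drawn from them are a lower limit.

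NSUN2-KO was compared with NC in limma 3.58.1 under R 4.3.3. The test used log2(FPKM + 1), a mean-variance trend, no covariate, genes averaging 1 FPKM or more, and Benjamini-Hochberg adjustment over all 9443 genes tested. A fold change is NSUN2-KO minus NC and is understated for low genes by the added 1 FPKM. The 10 genes and the lists were chosen with earlier results of these data known. Named genes are the 10 genes, Nsun2, up to 3 tested genes per list by smallest p, the 3 genes nearest in pattern to each end of the fold changes, and macrophage, adipocyte, endothelial and sex-linked markers. Neutrophil, dendritic cell and stromal markers were named after their values were seen. Alternatives were other pseudocounts (0.1 and 5), filters, scalings, limma voom, a replicate block, protein-coding genes, removal of GC and length trends, and each library left out. Among the scalings, median-ratio rescaling divided every library by the same 1.004, because the deposited values already carried such factors. It was therefore bound to give nearly the main result. Ratios were tested by exact permutation.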

Additional observations from a re-analysis of the deposited data

How the results depend on the processing

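Fabp5 kept its call and direction in all 18 alternatives, Hilpda in 11 and Dgat1 in 10, and neither of these reversed. These counts, and those for related genes, include the median-ratio rescaling, which was bound to give nearly the main result. With no filter, 0 of the described genes were higher and 1 lower, 1 related gene was higher and 1 lower, and 147 genes in all were higher and 118 lower. That related gene called higher was Gpat2, below the main filter and named after its values were seen (limma adjusted p = 0.0497). It averaged 0.173 FPKM in NSUN2-KO and 0.038 FPKM in NC libraries. The 4 related genes called higher in the main test all lost their calls with no filter (0.0931 to 0.114). With no mean-variance trend, 0 described genes were higher, 2 related genes higher and 3 lower, and 254 genes in all lower. With limma voom, 4 described genes were lower, and 779 genes in all were higher and 624 lower. A mean of at least 5 FPKM left 2 related genes higher, which removes genes from the list by construction. TPM scaling gave 3 related genes lower, and removing GC and length trends 1 described gene lower. Leaving out each library gave 0 to 1 described genes higher and 1 to 2 lower, 0 to 1 related genes higher and 1 to 3 lower, and 149 to 312 genes in all higher and 121 to 283 lower.

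With the replicate number as a block, 0 described genes were higher and 1 (Fabp5) lower, with adjusted p of 0.0578 for Hilpda and 0.0912 for Dgat1, 1 related gene was higher and 2 lower, and 190 genes in all were higher and 161 lower. The labels do not say that numbers pair the libraries, and deviations of same-numbered libraries correlated at -0.0095, -0.030 and 0.0034, with no library correlating best with its own number. The 3 ratios kept their differences under the block (0.58, 0.17 and -0.60).

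Uncalled signs turned for Fabp4 without NSUN2-KO replicate 1 (0.020) or 3 (0.025) or NC replicate 1 (0.016), with a range of -0.078 to 0.025 over the left-out libraries. They turned for Plin2 with FPKM scaled to assigned reads (0.00093, an alternative chosen after seeing the data), in TPM (0.0084), with voom (0.0074), without GC and length trends (0.017), without NSUN2-KO replicate 1 (0.018) and without NC replicate 2 (0.017; range -0.017 to 0.018), and for Pnpla2 without GC and length trends (0.016). The cause of these shifts was not tested. The edgeR and DESeq2 alternatives were not run, since the deposited unit is FPKM. At most 224 reads per library lay behind Fabp4 and 82 behind Dgat2, and libraries of a group differed by more than counting error. Small changes in these genes were therefore not detectable.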
